A study of Mus musculus with 75 samples.

Results

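CTCF and cohesin were compared at the moment when cells leave mitosis, in the peak lists of ana/telophase. The 33127 CTCF peaks and 7995 Rad21 peaks of that stage were set against each other, and peaks that shared at least 1 bp were called paired. Together they are 41122 of the 246850 peaks in the 12 CTCF and Rad21 lists of the series.

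The cells were G1E-ER4, an uninduced subline of the GATA1-null mouse proerythroblast line G1E, of strain 129. Every group used here carried that GATA1 loss, and all came from the same line. Nocodazole at 200 ng/ml, given for 7 to 8.5 h, held them in pro-metaphase; cells released from it for 25 min were sorted as ana/telophase. The lists of other stages that are set beside it came from cells of the same arrest at 0 min (pro-metaphase), 60 min (early G1), 120 min (mid G1) and 240 min (late G1) of release, and from asynchronous cells, for which no release time is given. CTCF ChIP-seq, Rad21 ChIP-seq and in situ Hi-C had 2 samples each at this stage, of 75 samples in the series.

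The deposited lists pool those samples, so no spread between replicates is known and no difference was tested. Intervals in parentheses are exact 95% binomial intervals for shares and order-statistic intervals for medians, and both cover counting error only. Peaks of 1 list are not replicates of each other, and no p-value is given across them. The read depth behind the lists is unknown.

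CTCF is a zinc-finger protein that binds a directional DNA motif. Cohesin is a ring complex, with Rad21 as the subunit that closes the ring, and it extrudes chromatin loops until it meets an obstacle. CTCF bound in the right orientation is such an obstacle in vertebrate cells, so loops and domains often end at sites that hold both proteins. During mitosis most cohesin leaves the chromosome arms, and binding is rebuilt as cells exit.

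Most Rad21 peaks overlapped a CTCF peak, while most CTCF peaks had no Rad21 peak. Of the Rad21 peaks, 6978 of 7995 overlapped CTCF, 87.3% (86.5 to 88.0). Of the CTCF peaks, 6959 of 33127 overlapped Rad21, 21.0% (20.6 to 21.4), and 26168 did not. The Rad21 share was 54.2%, and the CTCF share 13.1%, when the overlap had to cover 50% of both peaks. Taking only the strongest 7995 CTCF peaks gave a CTCF share of 50.0%. The lists also have unlike floors, with a lowest −log10 p of 9.11 for CTCF and 4.13 for Rad21. A Rad21 peak without CTCF is thus one without a CTCF call at the stricter floor. A −log10 q of at least 5 in both lists kept all 33127 CTCF peaks and 6349 Rad21 peaks. The Rad21 share was then 95.8% and the CTCF share 18.3%. Beyond these values, the part of the floors in the shares was not tested.

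Pairing was close to a matter of yes or no. Of the overlapping Rad21 peaks, 6163 (88.3%) lay wholly inside their CTCF peak, and the median overlap was 207 bp. The smallest overlap was 9 bp and 2 pairs overlapped by under 50 bp. On the other side of the threshold, the Rad21 peak nearest to CTCF without touching it lay 83 bp away. Only 31 of the 1017 Rad21 peaks without CTCF lay within 1000 bp of a CTCF peak, and their median gap was 39.0 kb (quartiles 12.7 and 105). No Rad21 peak spanned more than 1 CTCF peak, and 19 CTCF peaks held 2 Rad21 peaks. Keeping the Rad21 peak with the nearest summit left 6959 pairs.

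CTCF peaks with Rad21 were the strong ones. The deposited fold enrichment, the authors' ratio of signal at the summit to background, had a median of 34.5 (quartiles 24.4 and 44.3) at CTCF peaks with Rad21 and 16.5 (10.7 and 26.1) at those without. Ranked within the CTCF list from 0 to 100, the peaks with Rad21 had a median of 80.0 (79.4 to 80.7), and those without had 41.7 (41.2 to 42.2). Peaks with Rad21 were also wider, with a median of 386 bp against 270 bp. The part of width in the chance of an overlap was not tested.

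The share with Rad21 climbed steadily through the CTCF list, cut into 10 deciles by fold. It was 2.87% (2.33 to 3.49) in the weakest decile, 11.6% in the fifth decile, 33.8% in the eighth decile and 61.8% (60.2 to 63.5) in the strongest. In the strongest decile, 1263 of the 3310 CTCF peaks had no Rad21 peak called. In the weakest, 95 of the 3313 CTCF peaks had one.

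**Figure D1:**
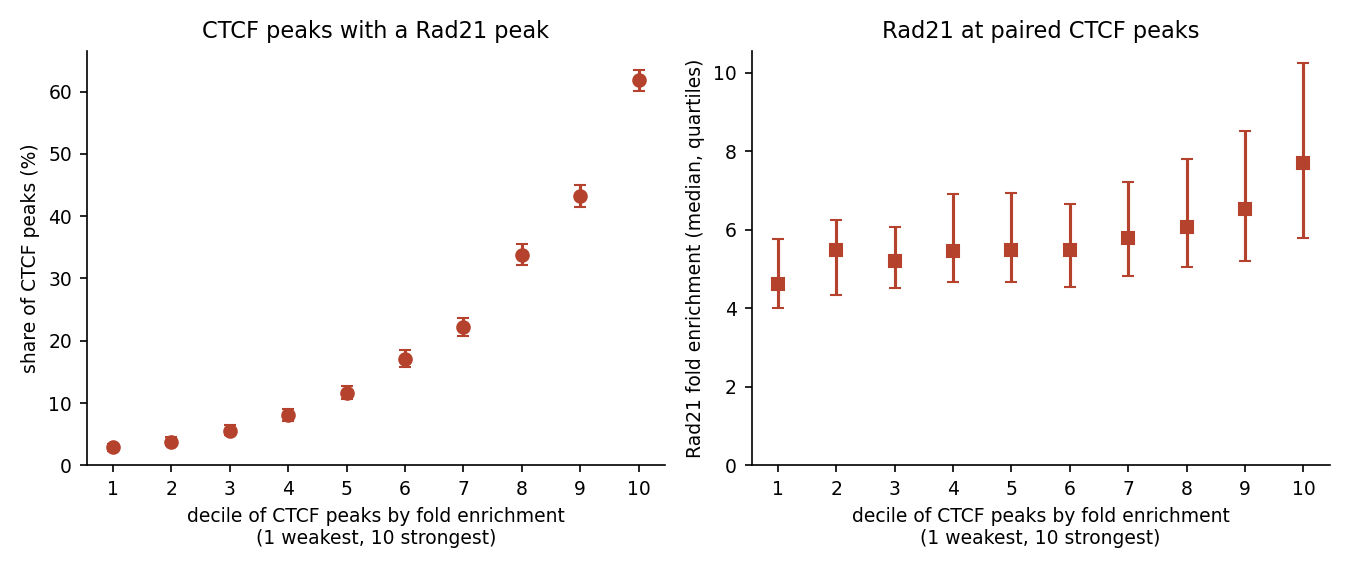
The left panel plots the share of ana/telophase CTCF peaks with a Rad21 peak in % against the decile of the CTCF list by fold enrichment, with exact 95% intervals, and the right panel the Rad21 fold enrichment at those peaks as median and quartiles. The share lay at 2.87% in the weakest decile and 61.8% in the strongest, and the median Rad21 fold at 4.62 and 7.70.

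Rad21 peaks showed the same order from their own side. The median fold was 6.27 for Rad21 peaks with CTCF (quartiles 5.10 and 8.33) and 4.25 for Rad21 peaks without it (3.76 and 4.62). Every Rad21 peak of the strongest 2 deciles, 791 and 797 in number, overlapped CTCF, and 53.2% (49.8 to 56.7) of the weakest decile did. The highest Rad21 fold was 31.7 with CTCF and 8.09 without it. Fold values of CTCF and Rad21 come from separate lists and were not compared with each other.

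Within pairs, stronger CTCF went with stronger Rad21, loosely. Spearman's rho between the fold enrichments was 0.368 over the 6959 pairs, and 0.330 between the −log10 p values. Both values of a pair are read at the same place in the genome, and each list comes from 1 pool of libraries. On single chromosomes rho ran from 0.241 (chromosome 6, 357 pairs) to 0.449 (chromosome 14, 251 pairs). With an overlap of 50% of both peaks it was 0.558. That rule keeps only pairs of similar width, so this value describes a selected set of pairs. The part of the selection in the higher rho was not tested.

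The relation was clearest at the ends of the ranking. Of the pairs in the strongest of 4 CTCF quartiles, 42.8% (40.5 to 45.2) were in the strongest Rad21 quartile and 11.9% (10.5 to 13.6) in the weakest. Of the pairs in the weakest CTCF quartile, 8.68% (7.40 to 10.1) were in the strongest Rad21 quartile and 40.7% in the weakest. Inside the 4 quartiles of the whole CTCF list, from weakest to strongest, rho was 0.143, 0.0606, 0.129 and 0.232, with 313, 754, 1792 and 4100 pairs.

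Single sites show how far the ranks can part. The pair with the highest summed ranks, on chromosome 15 from 99246850 to 99247453, had a CTCF fold of 67.8 and a Rad21 fold of 21.1, with summits 3 bp apart. The next, on chromosome 2 from 163226901 to 163227462, had 67.1 for CTCF and 19.9 for Rad21. At both sites CTCF and Rad21 peaks were called at each of the other stages too. Of the 5 highest pairs by this measure, 1 lay at a loop anchor of ana/telophase, on chromosome 10 from 76593241 to 76593803.

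Strong CTCF with little Rad21 was clearest on chromosome 2 from 33590195 to 33590903, where the CTCF fold of 52.7 ranked 857 and the Rad21 fold of 3.21 ranked 7862. That site lay 0.531 kb from a domain boundary. The opposite case, on chromosome 14 from 119015989 to 119016182, paired a CTCF fold of 10.2 at rank 27112 with a Rad21 fold of 10.8 at rank 732. It lay at a loop anchor, and its summits were 1 bp apart.

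The 5 pairs of highest summed ranks had CTCF folds of 63.1 to 72.6, and the 5 strongest CTCF peaks without Rad21 had 66.6 to 68.5. The strongest without Rad21, on chromosome 5 from 116009141 to 116009583, had a fold of 68.5, ranked 14 among all CTCF peaks and lay at a loop anchor. It had a CTCF peak at every stage and a Rad21 peak at none. The second, on chromosome 4 from 137838597 to 137839258, had a fold of 67.8; a Rad21 peak was called there in mid G1 (fold 3.68) and late G1 (6.01) only. The third, on chromosome 11 from 95120230 to 95120885, had a fold of 67.2 and lay 0.595 kb from a domain boundary, with Rad21 called in early, mid and late G1.

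The 2 weakest CTCF peaks with Rad21 had low folds for both proteins. They lay close together on chromosome 11, from 3092969 to 3093273 and from 3085861 to 3086077, with CTCF folds of 2.80 and 2.93 and Rad21 folds of 1.76 and 1.57. Low folds were listed there for both proteins in G1 and in asynchronous cells as well. At the first site both were also called in pro-metaphase, with folds of 2.00 for CTCF and 2.10 for Rad21. The third, on chromosome 2 from 96425891 to 96426048, had a CTCF fold of 5.69 and a Rad21 fold of 5.27.

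The summits of the 2 proteins lay close together. The median distance in the 6959 pairs was 20 bp (19 to 21; quartiles 9 and 34). Of the pairs, 90.3% (89.5 to 90.9) had summits within 50 bp and 99.1% within 100 bp, and 25 pairs were more than 200 bp apart. Stronger peaks had slightly closer summits: the median was 23 bp in the weakest decile of the CTCF list and 18 bp in the strongest, and 27 bp and 18 bp in the weakest and strongest deciles of the Rad21 list. Over all pairs the Rad21 summit had no preferred side, with a median offset of −1 bp (−2 to 0) counted as Rad21 minus CTCF.

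At loop anchors the Rad21 summit was displaced towards the inside of the loop. Pairs found only at upstream anchors, the ones with the lower coordinate, had a median offset of 13 bp (9 to 15, n = 336), and 232 of them (69.0%) had Rad21 on the higher side. Pairs found only at downstream anchors had −12 bp (−15 to −8, n = 386), and 257 (66.6%) had Rad21 on the lower side. The 6195 pairs at no loop anchor had −1 bp (−2 to 0), with 47.7% on the higher side and 50.6% on the lower. Single pairs scattered to both sides in each of the 3 groups, and the displacements were far smaller than a peak.

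**Figure D2:**
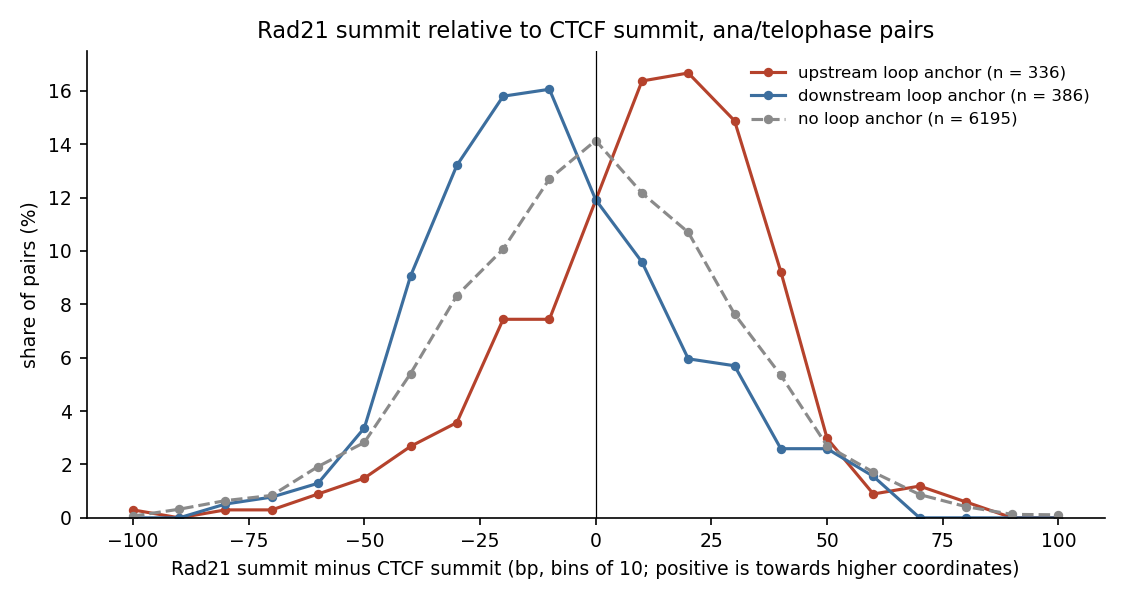
The share of pairs in % is plotted against the Rad21 summit minus the CTCF summit in bp, in bins of 10 bp, for pairs at upstream anchors (n = 336), at downstream anchors (n = 386) and at no loop anchor (n = 6195) of ana/telophase loops. The upstream curve peaks to the right of 0 and the downstream curve to the left, with medians of 13 bp and −12 bp, and the curve without an anchor is centred near −1 bp.

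Counted towards the loop, the 722 pairs at anchors of 1 side had a median of 12 bp (10 to 15), with 489 inward (67.7%, 64.2 to 71.1), 227 outward and 6 at 0. The inward share was 61.5% (53.9 to 68.6) where the summits were 1 to 10 bp apart, 68.6% at 11 to 30 bp and 73.5% (67.1 to 79.3) over 30 bp. By CTCF strength it was 67.9%, 66.0%, 67.1% and 68.1% from the weakest to the strongest quartile, with 28, 53, 149 and 492 pairs. The interval was 47.65 to 84.12 in the weakest quartile and 63.8 to 72.2 in the strongest. No order was seen, but the weaker quartiles hold too few pairs to settle a trend. No motif strand was used, since the direction came from the loops alone.

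Stripes pointed the same way as loops by their medians, and domain ends showed little displacement. Stripes are lines of contact that run from 1 anchor in 1 direction. Pairs at vertical stripes, whose body lies at lower coordinates, had a median offset of −16 bp (−22 to −9, n = 93). Pairs at horizontal stripes, whose body lies at higher coordinates, had 6 bp (−1 to 15, n = 64), an interval that includes 0. Within 20 kb of domain starts the median was −2 bp (−5 to 1, n = 485), and near domain ends it was 0 bp (−4 to 3, n = 521).

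The displacement was present at anchors of later loops as well. Using the longer loop lists of early and late G1 to assign sides to the ana/telophase pairs gave an inward median of 13 bp (12 to 14, n = 3800) and 14 bp (13 to 15, n = 4425). The inward shares were 70.0% (68.5 to 71.5) and 70.6% (69.2 to 71.9). The later lists can share anchors with the ana/telophase list, and how many they share was not counted.

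At loops with a pair at both anchors, 92 of 199 (46.2%, 39.2 to 53.4) had Rad21 on the inner side at both, taking the pair with the highest CTCF fold at each anchor. It was inward at the upstream anchor only in 54 (27.1%), at the downstream anchor only in 32 (16.1%) and at neither in 21 (10.6%). Whether the sides at both anchors of a loop go together was not tested. The median observed/expected ratio was 3.46 in the 92 and 3.39 in the 21.

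The same sites had their summits closer in ana/telophase than later. At sites paired in both lists the median distance was 20 bp in ana/telophase, against an early G1 value of 24 bp (n = 5663), a mid G1 value of 26 bp (n = 6567), a late G1 value of 26 bp (n = 6719) and 28 bp in asynchronous cells (n = 6341). The counting intervals were 19 to 20 bp in ana/telophase and 24 to 25 bp in early G1. They cover no spread between libraries, so a difference between stages was not tested. At single sites the order was far from general: against late G1, 3827 sites (57.0%) were closer in ana/telophase and 2767 were farther apart.

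The inward displacement was smaller in ana/telophase at those sites. Among sites at ana/telophase anchors it was 13 bp (10 to 15) in ana/telophase and 20 bp (17 to 22) in early G1 (n = 645), and 13 bp against 22 bp (20 to 24) in late G1 (n = 708). The inward share was 68.5% in ana/telophase and 77.0% in late G1 at the same 708 sites, and Rad21 was on the same side of CTCF in both stages at 74.2% of them. Peaks of different stages differ in strength and number, and the part of that in the distance was not tested.

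CTCF sites with Rad21 were found at ends of folded structures more often than CTCF sites without it. A domain boundary, a start or end of 1 of the 5531 domains, lay within 20 kb of the summit for 28.2% (27.2 to 29.3) of CTCF peaks with Rad21 and 20.2% (19.7 to 20.7) of those without, and for 21.9% of all CTCF peaks. Anchors of the 908 loops held 11.0% (10.3 to 11.7) with Rad21 and 5.00% (4.74 to 5.27) without, and 6.25% of all. Anchors of the 307 stripes held 2.27% (1.93 to 2.65) with Rad21 and 0.745% (0.645 to 0.857) without, and 1.07% of all. At least 1 of the 3 kinds of place was met by 2548 (36.6%) of the CTCF peaks with Rad21 and 6346 (24.3%) of those without.

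Rad21 peaks without CTCF were rarely at such places. A boundary lay within 20 kb for 28.2% of Rad21 peaks with CTCF and 12.6% (10.6 to 14.8) of those without, and for 26.2% of all Rad21 peaks. Loop anchors held 11.0% with CTCF and 1.67% (0.977 to 2.66), or 17 peaks, without, and 9.79% of all. Stripe anchors held 2.29% with CTCF and 2 peaks without, and 2.03% of all. The median distance to a boundary was 56.2 kb with CTCF and 116 kb without.

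At loops the share was higher with Rad21 in each quartile of CTCF strength, with intervals that overlap in the weakest. From the weakest to the strongest quartile of the CTCF list, loop anchors held 8.95%, 7.29%, 8.87% and 12.7% of peaks with Rad21, against 5.58%, 4.86%, 4.22% and 5.33% of peaks without. In the weakest quartile the intervals were 6.03 to 12.7 with Rad21 and 5.09 to 6.11 without. Without Rad21, the share at loops did not climb with CTCF strength. For boundaries the shares were 24.0%, 24.9%, 27.0% and 29.7% with Rad21, against 18.0%, 18.3%, 21.6% and 25.8% without, so that boundaries did climb with CTCF strength in both classes. Stripe anchors held 1.92%, 1.19%, 1.67% and 2.76% with Rad21, against 0.753%, 0.539%, 0.748% and 1.10% without. The intervals overlapped in the weaker 2 quartiles, which hold 6 and 9 such peaks with Rad21, and were apart in the stronger 2.

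**Figure D3:**
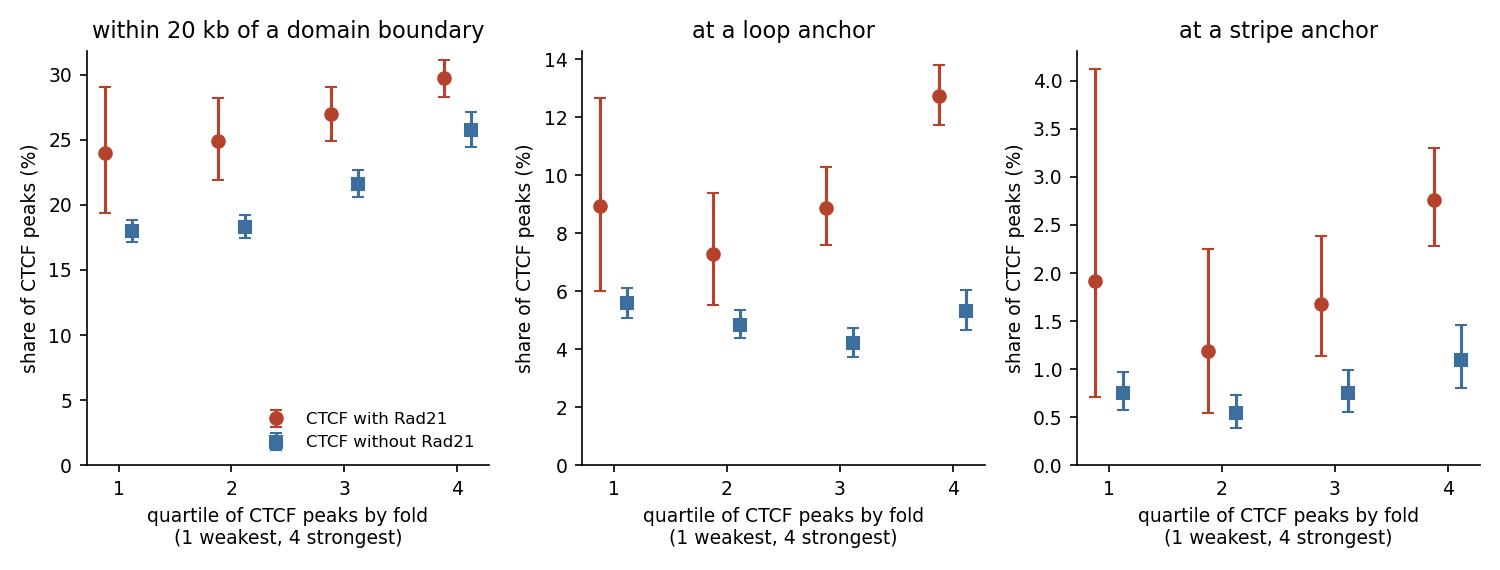
Shares of CTCF peaks in % within 20 kb of a domain boundary, at a loop anchor and at a stripe anchor are plotted by quartile of the CTCF list by fold enrichment, with Rad21 (red circles) left of without Rad21 (blue squares) and exact 95% intervals. In the strongest quartile 12.7% of peaks with Rad21 lay at a loop anchor, against 5.33% of peaks without.

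Split by Rad21 strength instead, the share at loops was highest among the strongest Rad21 peaks. These quartiles were not split by CTCF strength, which went with Rad21 strength within pairs (rho 0.368). The part of CTCF strength in these shares was not tested. From the weakest to the strongest quartile of the Rad21 list, 8.01%, 7.37%, 8.91% and 18.1% of the Rad21 peaks with CTCF lay at a loop anchor. Only the strongest quartile (16.4 to 19.8) stood apart, and the intervals of the lower 3 overlapped. At boundaries the same quartiles had 25.5%, 26.2%, 28.6% and 31.3%.

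Read from the structures, 498 of the 908 ana/telophase loops (54.8%, 51.5 to 58.1) had a pair at 1 or both anchors. Both anchors held a pair in 199 (21.9%), a pair faced a CTCF peak without Rad21 in 187 (20.6%), and CTCF without Rad21 stood at both in 74 (8.15%). A further 161 loops (17.7%) had no peak of either protein at either anchor. The median observed/expected ratio was 3.43 (3.27 to 3.58) with pairs at both anchors, 3.36 (3.08 to 3.75) with CTCF alone at both and 3.52 (3.28 to 3.79) with neither protein, and these intervals overlap. Loops with 1 empty anchor had lower medians, 3.20 (3.02 to 3.45) where the other anchor held a pair (110 loops) and 3.08 (2.96 to 3.27) where it held CTCF alone (171 loops). Median size was 120 kb with pairs at both anchors (110 to 140), with a pair facing CTCF alone (100 to 140) and with CTCF alone at both (80 to 140), against 80 kb (70 to 90) with neither protein. The 120 kb median was therefore not particular to loops with Rad21.

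The loops with pairs at both anchors and the highest ratios show the range. The first joined chromosome 4 from 88510001 to 88530000 with 88760001 to 88780000, 260 kb apart, at an observed/expected ratio of 8.09. Its upstream pair had a CTCF fold of 37.3 and a Rad21 fold of 6.77, its downstream pair had 32.0 and 4.21, and both Rad21 summits lay outward, by 28 and 20 bp. The second, on chromosome 6, joined 136410001 to 136430000 with 136470001 to 136510000 at 7.15, and its Rad21 summits lay inward by 16 and 34 bp. There the downstream CTCF fold of 57.4 stood with a Rad21 fold of 21.3.

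Stripe anchors held a pair in 126 of 307 cases (41.0%, 35.5 to 46.8), CTCF without Rad21 in 93 (30.3%) and neither protein in 87 (28.3%). Vertical stripes had a pair in 73 of 157 and horizontal stripes in 53 of 150. Over both directions, the deposited strength, observed over expected, had a lower median with a pair, 2.65 (2.59 to 2.73). It was 2.91 (2.75 to 3.09) with CTCF alone and 2.93 (2.75 to 3.02) with neither. In vertical stripes it was 2.59 (2.47 to 2.70) with a pair, 2.95 (2.75 to 3.17) with CTCF alone and 2.83 (2.60 to 3.01) with neither. In horizontal stripes these medians were 2.73 (2.62 to 2.86), 2.84 (2.69 to 3.15) and 2.95 (2.71 to 3.15), with intervals that overlap. Median length of the stripe body was 220 kb with a pair and 210 kb in both other classes. Of the horizontal stripes with a pair, the longest body, 560 kb on chromosome 5 from 136100001 to 136660000, belonged to an anchor at 135860001 to 135880000, where a CTCF fold of 48.8 stood with a Rad21 fold of 5.22 displaced 35 bp towards the stripe. Of the vertical ones, the longest body, 430 kb on chromosome 16 from 95390001 to 95820000, belonged to an anchor at 96180001 to 96190000, with a CTCF fold of 28.4 and a Rad21 fold of 6.36 displaced 12 bp away from it.

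Many domain ends had no paired site nearby. Of the 5531 domains, 566 (10.2%, 9.45 to 11.1) had a pair within 20 kb of both ends, 2027 (36.6%) of 1 end and 2938 (53.1%) of neither. Of the 7414 distinct boundaries, 1946 (26.2%) had a pair, 2463 (33.2%) only CTCF without Rad21 and 3005 (40.5%) no CTCF peak. The domains with pairs at both ends had a median size of 305 kb (290 to 320), those with a pair at 1 end 310 kb (300 to 320) and those with pairs at neither 280 kb (270 to 280). Among domains in no larger domain the medians were 320, 320 and 260 kb in that order, and among nested domains 290, 300 and 290 kb, so the size difference was in the outermost ones. The longest with pairs at both ends were of equal size, 2490 kb: 1 lay on chromosome 2 from 19330001 to 21820000, the other spanned 112070001 to 114560000 of chromosome 8. That on chromosome 2 had CTCF folds of 33.1 and 43.2 and Rad21 folds of 6.36 and 7.22 near its start and end.

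The paired sites differed from the others at the stages around ana/telophase. A pro-metaphase CTCF peak overlapped 65.2% (64.1 to 66.3) of the CTCF peaks with Rad21 and 26.8% (26.2 to 27.3) of those without, and 34.8% of all CTCF peaks. Within the strongest decile the shares were close, at 97.9% (97.2 to 98.5) against 96.7% (95.5 to 97.6). The weakest decile held few pro-metaphase peaks in either class, 3 of 95 with Rad21 and 33 of 3218 without.

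Rad21 at later stages did not level out in this way. Among CTCF peaks with Rad21, a Rad21 peak was called again in early, mid and late G1 and in asynchronous cells at 81.5%, 94.4%, 96.7% and 91.3%. Among those without, the shares were 9.51%, 25.7%, 33.5% and 21.2%, and over all CTCF peaks they were 24.6%, 40.1%, 46.8% and 35.9%. In the strongest decile, 97.7% of peaks with Rad21 had one in late G1, against 61.8% (59.1 to 64.5) of the 1263 without. Of those 1263, 427 (33.8%) had no Rad21 peak in any of the 6 lists, against 16549 of the 26168 CTCF peaks without Rad21 in ana/telophase (63.2%) and 50.0% of all CTCF peaks.

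**Figure D4:**
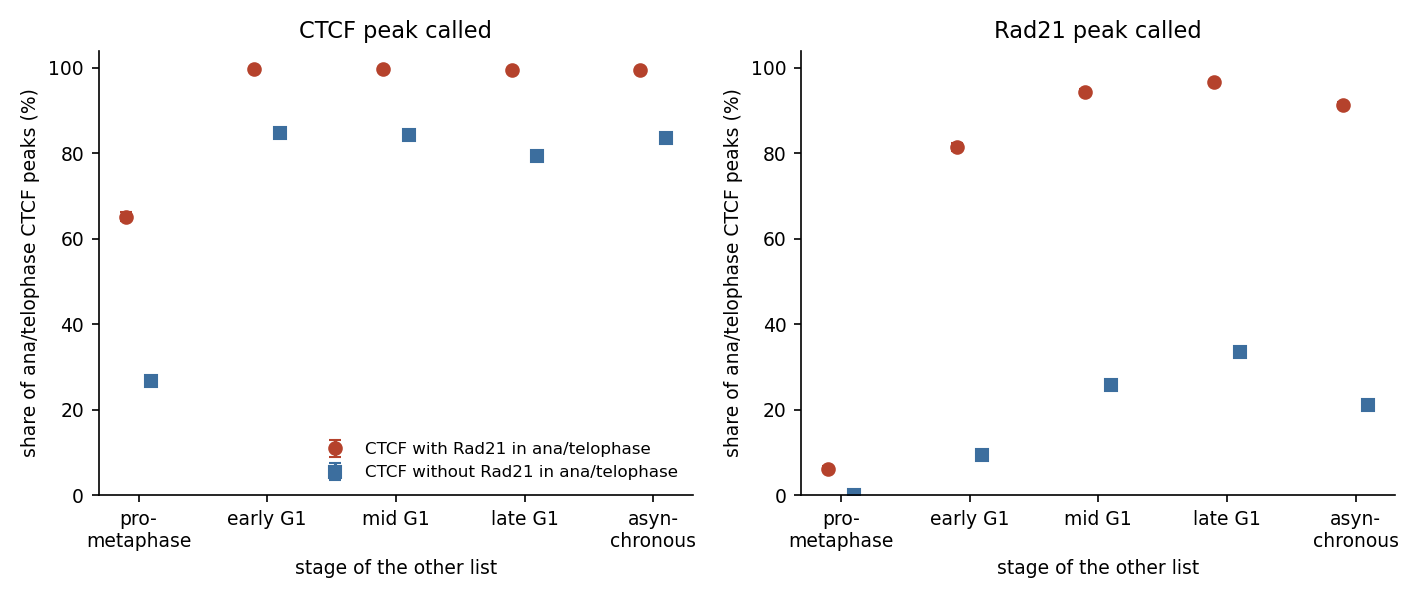
Shares of ana/telophase CTCF peaks in % with a CTCF peak (left) or a Rad21 peak (right) at the same place in 5 other lists are plotted for peaks with Rad21 in ana/telophase (red circles) and without (blue squares), with exact 95% intervals that are mostly smaller than the symbols. For Rad21 in late G1 the shares were 96.7% and 33.5%, and for CTCF in pro-metaphase 65.2% and 26.8%.

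Paired sites were also more often at loops of later stages. Anchors of early G1 loops held 62.1% (61.0 to 63.3) of the CTCF peaks with Rad21 and 31.2% (30.6 to 31.8) of those without, and 37.7% of all CTCF peaks. Late G1 anchors held 76.4% (75.4 to 77.4) with Rad21 and 43.3% (42.7 to 43.9) without, and 50.2% of all. In the strongest quartile of CTCF peaks the late G1 shares were 78.7% and 53.8%, and in the weakest quartile 72.8% (67.6 to 77.7) and 39.5%. The late G1 list holds 11340 loops, against 908 in ana/telophase.

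The 1017 Rad21 peaks without CTCF were mostly not found again. In late G1 a Rad21 peak overlapped 157 of them (15.4%, 13.3 to 17.8), against 86.4% of all ana/telophase Rad21 peaks, and a CTCF peak overlapped 147 (14.5%), against 88.6% of all. The strongest ones behaved differently. The highest 5, with Rad21 folds of 7.27 to 8.09, all had CTCF and Rad21 peaks in early, mid and late G1 and in asynchronous cells. The first, on chromosome 17 from 56948016 to 56948254, had a Rad21 fold of 8.09 in ana/telophase and a late G1 peak with folds of 31.1 for CTCF and 24.2 for Rad21. Those 5 were sites where the CTCF call was missing in ana/telophase and present later.

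Chromosome 1 stood apart in the Rad21 list, and it was singled out after the counts were seen. It carried 336 of the 1017 Rad21 peaks without CTCF (33.0%) but 7.00% of the CTCF peaks, and its share of CTCF peaks with Rad21 was the highest at 29.0% (27.2 to 30.9). The 336 peaks were spread over the chromosome, with quartiles at 40.0 Mb and 135 Mb and a last peak at 197 Mb. Their median fold was 4.04, against 4.01 for those on chromosome 14 and 4.33 for the 602 on all other chromosomes, so low folds were common to all. In late G1, 6.85% (4.39 to 10.1) of the 336 had a Rad21 peak, against 21.1% (17.9 to 24.6) of the 602. How many copies of each chromosome these cells carry is unknown here, and none of these counts is corrected for it. Chromosome 14 held 79 more (7.77%), against 3.67% of the CTCF peaks. Without chromosome 1 the share of Rad21 peaks with CTCF was 90.2% and that of CTCF peaks with Rad21 20.4%.

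**Figure D5:**
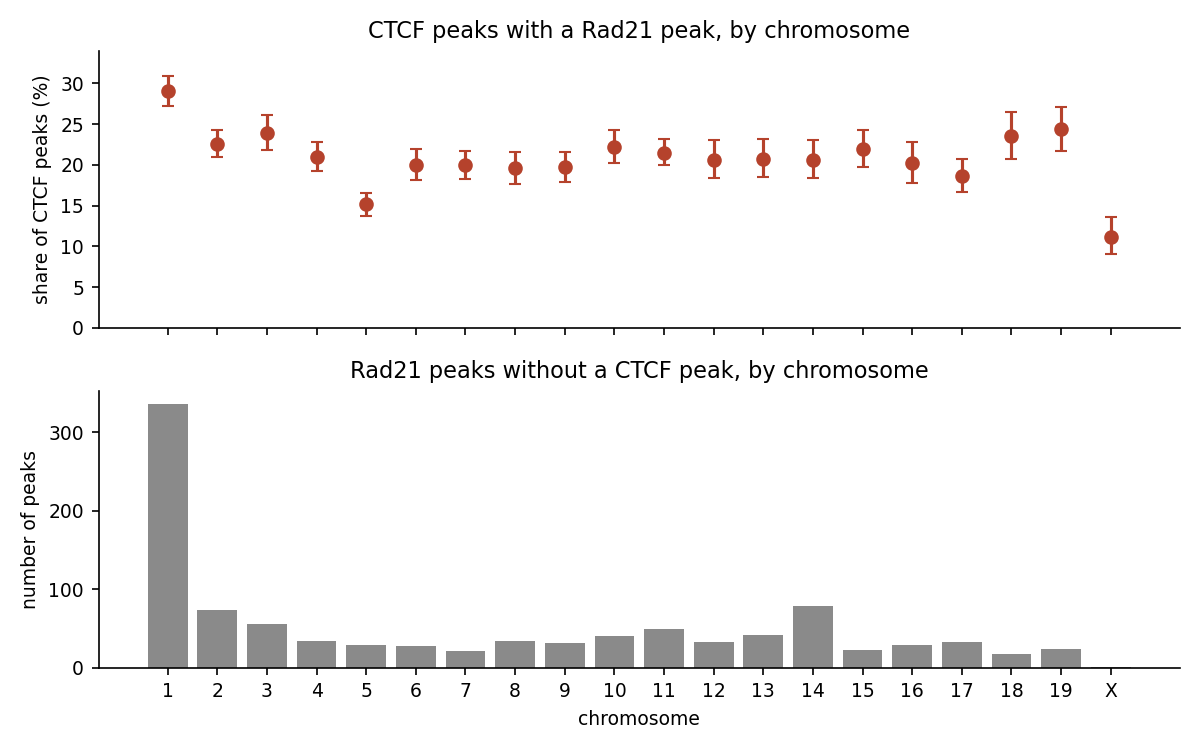
The upper panel plots the share of CTCF peaks with Rad21 in %, with exact 95% intervals, and the lower panel the number of Rad21 peaks without CTCF, for each chromosome. Chromosome 1 is highest in both, at 29.0% and 336 peaks, and chromosome X is lowest, at 11.2% and 1 peak.

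Chromosome 1 also had the most structures of any chromosome, with 105 of the 908 loops and 51 of the 307 stripes. The next highest counts were 81 loops on chromosome 11 and 28 stripes on chromosome 2. These counts are not set against chromosome length. Chromosome X had the lowest share of CTCF peaks with Rad21, 11.2% (9.09 to 13.6), the lowest median CTCF fold, 15.8, and 9 loops and no stripe. Chromosome 5 was the lowest autosome at 15.2% (13.8 to 16.6), with a median CTCF fold of 18.2.

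Of the 6 pairs of lists, ana/telophase had the closest summits. It also had the highest median CTCF rank among paired peaks, a value bounded by the share of peaks paired. Spearman's rho of CTCF and Rad21 fold within pairs was 0.0479 in pro-metaphase (365 pairs) and 0.368 in ana/telophase. It was 0.387, 0.425 and 0.494 in early, mid and late G1, and 0.400 in asynchronous cells. The median summit distance over all pairs of each stage was 33, 20, 24, 25 and 26 bp from pro-metaphase to late G1, and 27 bp in asynchronous cells. The median CTCF rank of peaks with Rad21 was 58.7, 80.0, 77.5, 72.1 and 68.6 in the same order, and 72.0 in asynchronous cells. These lists differ in length. The share of CTCF peaks with Rad21 was 3.15%, 21.0%, 25.3%, 42.0% and 53.7% from pro-metaphase to late G1, and 39.4% in asynchronous cells. The larger that share, the lower the highest median rank that the peaks with Rad21 can reach. The ranks are thus not like for like between stages, and a stage difference in preference for strong CTCF was not tested. The share of Rad21 peaks with CTCF was 62.4% in pro-metaphase and 87.3% in ana/telophase. It was higher in all later lists, at 98.5%, 96.2% and 95.0% in early, mid and late G1 and 96.3% in asynchronous cells.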

How the data were processed

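CTCF and Rad21 ChIP-seq and in situ Hi-C samples of ana/telophase were grouped by their titles. MACS2 2.1.0, Bowtie 0.12.7, SAMtools 1.7 and bedtools 2.27.1 (ChIP-seq), HiC-Pro and Bowtie2 (Hi-C) and build mm9 appear in the submitters' processing notes. Replicates were merged and downsampled before peaks were called, as the deposited peak names state; Rad21 names also hold the terms punctate and p1e4. Each peak carries the authors' fold enrichment (a ratio), −log10 p, −log10 q and summit offset. Loop lists give an observed and an expected contact signal and a p-value, and stripe lists a strength ratio, per the file headers. The control behind the fold and the callers of the Hi-C features were not given in the sources used here.

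Computed here, with Python 3.11.15, NumPy 2.4.6, pandas 2.3.3, SciPy 1.17.1 and Matplotlib 3.10.9, were overlaps of at least 1 bp, pairs by nearest summit, percentile ranks, distances and anchor overlaps. Interval functions were tested on simulated data against bedtools 2.31.1. Deciles and quartiles are by fold within the whole list unless pairs are named. Coordinates are mm9, counted from 1. The gene positions at hand belong to GRCm38, so no gene was assigned and no sequence was read.

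Regions were named by rule: the highest summed ranks, the highest CTCF without Rad21 and Rad21 without CTCF, the lowest CTCF with Rad21, the largest rank differences, and the strongest loops and longest domains and stripes with pairs. The sets and rules were chosen with earlier results of these data known. Alternatives were other overlaps, thresholds, pairings, list lengths, distances and anchor widths. Leaving out chromosome 1 and using the loops of later stages for direction were chosen after seeing the data.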

Additional observations from a re-analysis of the deposited data

How the results depend on the processing

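Of 47 alternative values for 9 results, 25 stayed within the interval of the reported value, 21 moved beyond it and 1 changed sign. Requiring an overlap of 50% of both peaks gave 54.2% of Rad21 peaks with CTCF, 13.1% of CTCF peaks with Rad21, a rank correlation of 0.558, CTCF ranks of 73.4 with and 45.9 without Rad21, and 11.8% against 5.41% at loop anchors. Summits within 100 bp gave 86.2% of Rad21 peaks with CTCF. A −log10 q of at least 5, which kept 6349 Rad21 peaks, gave 95.8% and 18.3% for the Rad21 and CTCF shares and CTCF ranks of 81.6 with and 42.6 without Rad21. A fold of at least 5 gave 97.3% and 16.2%. CTCF cut to the length of the Rad21 list gave 50.0%. Ranking by −log10 p gave a correlation of 0.330 and a CTCF rank of 81.2 with Rad21. Boundary shares were 17.4% against 12.1% at 10 kb, 41.9% against 32.5% at 40 kb, and 21.3% against 15.0% for domains in no larger domain. Anchors widened by 10 kb gave 14.5% against 7.54% at loops and 4.01% against 1.38% at stripes. Without chromosome 1 the shares were 90.2% and 20.4%. The offset taken from domain starts and ends was −1 bp in place of 12 bp. The cause of these shifts was not tested beyond the fewer peaks or wider places that each setting allows by construction. Wherever a setting was run for the CTCF rank or for a share at boundaries, loops or stripes, that value stayed higher with Rad21 than without; thresholds on −log10 q and fold, summit distance and list length were not run for the places.

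No paired analysis was possible because each list pools its replicates, and for the same reason none was left out. Read depth is unknown, so a missing Rad21 peak is a peak not called at this depth, not an absence of cohesin. Anchors and boundaries come in bins of 10 kb, far coarser than the summit distances, and an anchor holds several peaks in places. Sides at anchors came from loops and not from motifs.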
